A study of Mus musculus with 6 samples.

Results

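Arntl, Npas2 and Clock encode the transcription factors that drive the circadian clock, and Nr1d1, Nr1d2, Rora and Rorb encode nuclear receptors that set the expression of those factors. Every probe whose gene name on the array equals 1 of these 7 symbols was taken, which gave 16 of the 56605 probes of the array that are not controls, and 7 of its 37074 gene names. The 6 arrays held hypothalamic RNA of male C57BL/6J DIO mice, that is, mice made obese by a diet with 60 kcal% fat for 16 weeks from 6 weeks of age, kept under 12 h of light and 12 h of darkness. In the GSK-J4 group, 3 mice received GSK-J4 at 30 mg/kg, and in the vehicle group 3 mice received vehicle (dose 0). GSK-J4 blocks the Kdm6 enzymes, which take the silencing mark H3k27me3 off histones, and the methods describe it as given by daily intraperitoneal injection in water with 2% DMSO. Each array carried RNA of a different mouse, and the tissue was taken at ZT 6 h, which is 6 h after lights on. The arrays are described as day 4, whereas the treatment course in the methods was longer, so the length of exposure is known only from that description. No lean or untreated mice were on these arrays.

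CLOCK, or in its place NPAS2, pairs with BMAL1, the product of Arntl, and the pair binds E-boxes in the promoters of Per, Cry, Nr1d1 and other clock genes. The PER and CRY proteins then block the pair that made them. In a second loop, the ROR receptors activate and the REV-ERB receptors (Nr1d1 encodes REV-ERB alpha, Nr1d2 REV-ERB beta) repress genes that carry a shared response element, among them Arntl itself. In the brain, the suprachiasmatic nucleus of the hypothalamus keeps this rhythm in step with light, NPAS2 is best known from the forebrain, and RORB from sensory pathways and the suprachiasmatic nucleus. All these transcripts can cycle over the day, and the arrays measured 1 time of day.

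Of the 7 genes, 4 were measured by several 60-base probes, and the results below turn on probes that differ within a gene, so the sequences of such probes are shown first, each written in the direction of the transcript. The 3 Arntl probes follow the transcript from 5′ to 3′ and lie in the coding part on chromosome 7 (mm9, plus strand), at chr7:120435023-120436706, where the probe joins exons across an intron, chr7:120439030-120439089 and chr7:120456978-120457037.
Arntl A_66_P127371: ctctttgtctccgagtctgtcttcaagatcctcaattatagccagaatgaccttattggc
Arntl A_55_P2735445: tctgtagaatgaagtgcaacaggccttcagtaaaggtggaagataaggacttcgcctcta
Arntl A_52_P267651: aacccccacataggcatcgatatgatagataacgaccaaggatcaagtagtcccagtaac
Of Clock and of Rora, the first 30 bases are given for the 5′-most kept probe and for the probe nearest the 3′ end. The Clock probes lie on chromosome 5 (minus strand) at chr5:76664578-76664637 and chr5:76639992-76640051, and the Rora probes on chromosome 9 (plus strand) at chr9:68511835-68511894 and chr9:69227536-69227595.
Clock A_52_P279391, first 30 bases: tggtggacccttactagaaagaatcacaga
Clock A_55_P2746404, first 30 bases: gcctgtactggttcacatttattgctgaca
Rora A_55_P2068006, first 30 bases: tagttttcagtcaggaaaccagtggatgat
Rora A_55_P2908171, first 30 bases: cacaagtttagctgagaaggcttggaaggt
Over their full 60 bases, the 5′-most Clock probe and the 5′-most Rora probe hold a stop codon in every forward reading frame (0 open frames), as does the Rorb probe, while each of the other 13 probes has at least 1 open frame. The 2 probes without an open frame in Clock and Rora were designed on transcript records other than those of their genes' remaining probes.

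Over the whole array, the deposited log2 signals were compared between the groups at each of the 34443 probes that all 3 arrays of 1 or both groups showed well above background, and 15 of the 16 probes of the 7 genes were among them. Of these 15, 0 rose and 2 fell in the GSK-J4 mice (limma, threshold of 0.05 on the adjusted p), the 5′-most probes of Clock and Rora. That is 13.3% of the 15, beside 16.8% of all probes tested (8.39% higher and 8.42% lower). A count of 2 in 15 is near the share of the array as a whole. Before adjustment, 6 of the 15 had a p under 0.05, which is 40.0%, beside 36.5% of all probes. Signals of the 2 groups did not overlap for 2 probes that were higher and 5 that were lower, beside 45.6% of all probes (24.5% higher and 21.2% lower). The median difference of the 15 was −0.12 on the log2 scale and that of all probes 0.02. With the cut-offs that the methods name, 1.5 for the fold change and 0.05 for the unadjusted p, here from limma, 1 probe was higher (Npas2) and 2 were lower (Clock and Rora), with 12.6% of all probes past both (4.79% higher and 7.86% lower). All directions follow the labels of the arrays. GSK-J4 acts on enzymes and not on the level of a transcript, so no targeted gene checks the labels here, and every direction rests on them.

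**Figure D1:**
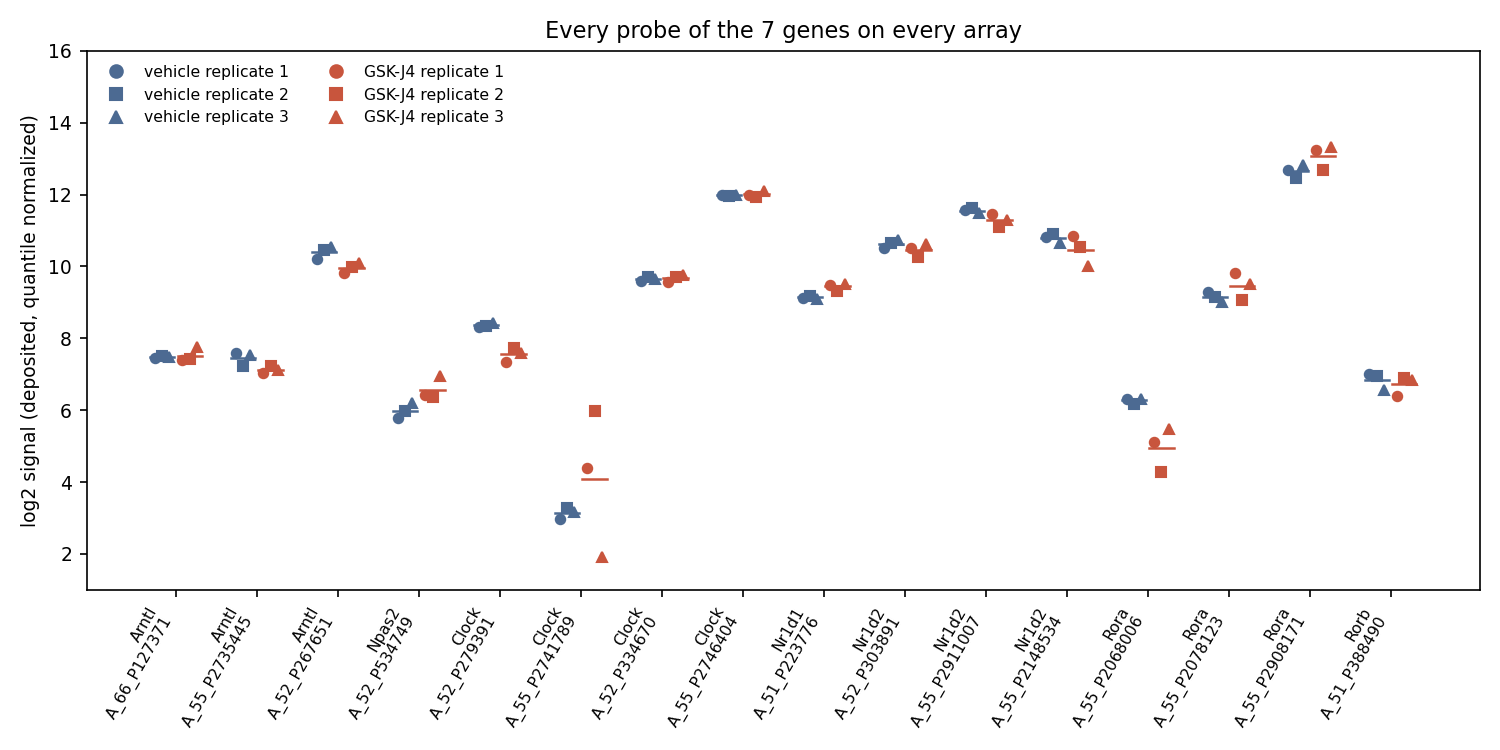
Deposited log2 signal of every probe of the 7 genes on each array, with probes of a gene ordered from 5′ to 3′; circles, squares and triangles are replicates 1, 2 and 3, and horizontal lines are group means (n = 3). The GSK-J4 signals lie below all vehicle signals at the first Clock probe and the first Rora probe, and levels of different probes are not comparable.

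The arrays themselves differed with treatment. All vehicle arrays were on 1 slide and all GSK-J4 arrays on another, each slide with a scan of its own, so in all that follows treatment and slide cannot be told apart. The GSK-J4 arrays were dimmer, with a 75th percentile of unnormalized signal from 406 to 461 against 787 to 916 on the vehicle arrays, and 57.7% to 58.7% of probes against 62.8% to 63.6% were well above background. Array pairs within a group correlated at 0.978 to 0.995 across kept probes, and pairs between the groups at 0.969 to 0.987. GSK-J4 replicate 3 correlated with the other GSK-J4 arrays at 0.978 and 0.980, below the highest pairs between the groups. The labelled tissue was checked against its markers. Otp, Nkx2-1 and Six6, transcription factors that define hypothalamic neurons, were well above background on 0 of the 6 arrays. Avp, Pmch and Trh were so on 3 arrays, and 5 of the 12 hypothalamic markers on all 6. The hypothalamic list had 16 probes, of which 7 were kept. All 7 kept probes had differences above 0 and 2 of them rose, those of Npy and Pomc. Apart from the Crh probe (35.0% GC, difference 0.41), all kept probes of this list had a GC content of 48.3% or more. Over the array, probes with 48.3% GC or more had a median difference of 0.23, and 20.4% of them were called higher. The part of base composition in the differences of this list was not tested. The summed unlogged signal of the list was 3487 to 3823 on the vehicle arrays and 4813 to 5466 on the GSK-J4 arrays. Most of this sum came from the Npy probe, with log2 signals of 11.46 to 11.56 on the vehicle arrays and 11.89 to 12.04 on the GSK-J4 arrays. Differences were 0.10 for Agrp and 0.09 and 0.10 for the 2 Oxt probes, and the groups overlapped at each of these. The summed signal of the microglial list separated too, at 6454 to 7414 against 8544 to 8941, with 0 of its 5 probes called. Differences were 0.37 and 0.30 at the 2 Cx3cr1 probes and 0.58 at Aif1, where the groups did not overlap. They were −0.01 at P2ry12 and 0.03 at Tmem119, where the groups overlapped. Of the 6 markers of the suprachiasmatic nucleus, 4 were well above background on all 6 arrays. The 5 kept probes of this list had differences above 0, with a median of 0.22, and 1 rose, that of Nms (0.57, adjusted p = 0.032 in limma). The summed signal of this list was 1539 to 2322 on the vehicle arrays and 1808 to 3066 on the GSK-J4 arrays, so the groups overlapped. Most of it came from Rgs16, which is also in the thalamic list, and Vip, with mean log2 signals of 10.1 and 9.74. The means of Nms, Lhx1 and Prok2 were 5.43, 5.35 and 4.56. All 5 cortical and all 7 thalamic markers were well above background on all 6 arrays. Probes of the cortical list numbered 6, of which 2 were higher and 1 lower in the GSK-J4 mice at the same threshold, and of the thalamic list 16, with 3 higher and 0 lower. The summed signal of the cortical list was 15348 to 15456 on the vehicle arrays and 12728 to 14089 on the GSK-J4 arrays, and that of the thalamic list 11304 to 13164 and 12549 to 15749. Of 6 choroid plexus markers, all were detected, with summed signals of 2861 to 115135 on the vehicle arrays and 2584 to 11850 on the GSK-J4 arrays, and the highest was vehicle replicate 1. The part of these regions and cell types in the results below was not tested. In such tissue, fewer cells of a type and less RNA per cell cannot be told apart.

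Arntl, whose product is the obligatory partner in the activator pair, gave lower values in GSK-J4 mice at its 2 more 3′ probes, neither past the adjusted threshold. The 3′-most probe (A_52_P267651) gave log2 signals of 10.21, 10.45 and 10.54 in the vehicle mice and 9.82, 9.98 and 10.10 in the GSK-J4 mice. Every GSK-J4 mouse lay below every vehicle mouse, and the difference was −0.43 ± 0.12 (SE, n = 3 per group), with an adjusted p of 0.065 in limma. It reached 0.032 when the background was corrected by normexp, a setting under which the probe was called.

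The middle Arntl probe (A_55_P2735445) gave 7.58, 7.22 and 7.53 in the vehicle mice and 7.04, 7.22 and 7.12 in the GSK-J4 mice. Vehicle replicate 2 and GSK-J4 replicate 2 shared a value after rounding, so the groups touched without overlapping. The difference was −0.32 ± 0.12 (SE) with an adjusted p of 0.12 in limma, and 0.046 with normexp. At the 5′-most probe (A_66_P127371) the vehicle mice gave 7.46, 7.51 and 7.47 and the GSK-J4 mice 7.39, 7.42 and 7.75. GSK-J4 replicates 1 and 2 lay below all vehicle mice there and replicate 3 above them all, and the difference was 0.04 ± 0.12 (SE), adjusted p = 0.83 in limma; scaling to the 75th percentile turned it to −0.08. The 3 probes of Arntl thus gave differences of 0.04, −0.32 and −0.43 from 5′ to 3′.

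Npas2 encodes the paralog that can take the place of CLOCK. Its single probe (A_52_P534749, chr1:39418941-39419000, plus strand, mm9) gave log2 signals of 5.79, 5.98 and 6.18 in the vehicle mice and 6.41, 6.36 and 6.95 in the GSK-J4 mice. All GSK-J4 values were above all vehicle values, with GSK-J4 replicate 3 apart from the other two. The difference was 0.59 ± 0.19 (SE, n = 3 per group), a 1.5-fold higher signal, which lies at the fold threshold of the methods, with an adjusted p of 0.086 in limma. It was 0.40 without GSK-J4 replicate 3 and 0.36 with normexp.

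Clock encodes the histone acetyltransferase and DNA-binding partner of BMAL1, and its probes did not give 1 answer. At the 5′-most kept probe (A_52_P279391) the signals were 8.32, 8.34 and 8.43 in the vehicle mice and 7.34, 7.72 and 7.60 in the GSK-J4 mice. The vehicle mice lay within a narrow range and every GSK-J4 mouse was below it. Clock fell by 0.81 ± 0.12 on the log2 scale at this probe (SE, n = 3 per group; adjusted p = 0.018 in limma), a 1.75-fold lower signal. With 35.0% GC the probe is AT-rich, and probes of the same GC content had a median difference of −0.15, with 15.3% of them called lower. After a trend with GC content was removed within the arrays, the difference was −0.64 with an adjusted p of 0.031. It was −0.59 (adjusted p = 0.017) with normexp and −0.90 (adjusted p = 0.012) with scaling to the 75th percentile in limma. The call was lost when any vehicle array was left out, with adjusted p of 0.063, 0.070 and 0.074 in limma without vehicle replicates 1, 2 and 3, and with the methods' t-test (adjusted p = 0.12), while the difference stayed between −0.89 and −0.70 with any array left out.

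The 2 probes toward the 3′ end of Clock showed no such difference. A_52_P334670 (chr5:76641377-76641436) gave 9.60, 9.71 and 9.65 in the vehicle mice and 9.58, 9.72 and 9.75 in the GSK-J4 mice, a difference of 0.03 ± 0.08 (SE; 95% interval −0.17 to 0.23). A_55_P2746404 gave 12.00, 11.96 and 11.99 against 11.99, 11.92 and 12.11, a difference of 0.02 ± 0.08 (SE; 95% interval −0.17 to 0.21). Groups overlapped at both, and the interval of neither holds the value of the 5′ probe. The fourth Clock probe (A_55_P2741789, chr5:76658557-76659217, which joins exons) was not well above background on any vehicle array and was so on 1 GSK-J4 array. Its signals were 2.97, 3.27 and 3.15 in the vehicle mice and 4.40, 5.97 and 1.91 in the GSK-J4 mice, and it entered no test.

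Nr1d1 encodes REV-ERB alpha, a repressor of Arntl and itself a target of the activator pair. The single probe (A_51_P223776) lies in the coding part and joins exons at chr11:98630526-98631028 (minus strand, mm9). The 3′ end of the gene overlaps that of Thra, which is read from the other strand, and whether the labelling kept the strands apart was not tested. The sequence is shown because it is the most GC-rich of the 16.
Nr1d1 A_51_P223776: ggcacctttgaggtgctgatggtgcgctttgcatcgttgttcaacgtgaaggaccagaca
The signals were 9.13, 9.19 and 9.09 in the vehicle mice and 9.50, 9.32 and 9.51 in the GSK-J4 mice. All GSK-J4 mice were above all vehicle mice, by 0.30 ± 0.08 (SE, n = 3 per group), with an adjusted p of 0.059 in limma. The adjusted p was 0.0489 with scaling to the 75th percentile and 0.0492 when tested only among probes well above background on all 6 arrays, so that the probe was called higher under these settings. The probe has 53.3% GC, and the 949 probes of this GC content had a median difference of 0.22. With the GC trend removed, the difference was 0.04 (adjusted p = 0.73 in limma).

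Nr1d2 encodes REV-ERB beta, the partly redundant second repressor. All its 3 probes lie within a short stretch at the 3′ end of the gene on chromosome 14 (minus strand, mm9). A_55_P2911007 (chr14:19036859-19036918) gave 11.56, 11.61 and 11.48 in the vehicle mice and 11.46, 11.10 and 11.28 in the GSK-J4 mice. The groups did not overlap, by a narrow margin, and the difference was −0.27 ± 0.11 (SE) with an adjusted p of 0.14 in limma. A_52_P303891 (chr14:19037253-19037312) gave 10.51, 10.64 and 10.74 against 10.51, 10.27 and 10.62, a difference of −0.16 ± 0.12 (SE). A_55_P2148534 (chr14:19036568-19036627) gave 10.81, 10.91 and 10.65 against 10.85, 10.55 and 9.998, a difference of −0.32 ± 0.23 (SE). Groups overlapped at both of these, with adjusted p of 0.37 and 0.34 in limma. Leaving out GSK-J4 replicate 3 took A_55_P2148534 to −0.089 and leaving out GSK-J4 replicate 1 took it to −0.52, A_52_P303891 was −0.063 without GSK-J4 replicate 2 and −0.11 without vehicle replicate 3, and A_55_P2911007 was −0.18 without GSK-J4 replicate 2. With the GC trend removed, the 3 differences in the order given were −0.20, 0.01 and −0.15, so that the direction at A_52_P303891 was not kept.

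Rora encodes ROR alpha, an activator at the element that REV-ERB proteins repress. The 5′-most probe (A_55_P2068006) gave log2 signals of 6.32, 6.18 and 6.30 in the vehicle mice and 5.10, 4.28 and 5.46 in the GSK-J4 mice. All vehicle mice lay close together and all GSK-J4 mice below them, GSK-J4 replicate 2 the farthest, where the probe was not well above background. The probe was kept through the vehicle arrays alone, since only 2 GSK-J4 arrays measured it above background, and a probe kept in this way tends to differ in this direction. The fitted difference was −1.32 ± 0.30 on the log2 scale (SE, n = 3 per group), called lower with an adjusted p of 0.038 in limma, and its size rests in part on a signal at background. It was smaller with normexp, at −0.46 (adjusted p = 0.028 in limma), and with the GC trend removed it was −1.39 (adjusted p = 0.042). Leaving out vehicle replicate 1, 2 or 3 or GSK-J4 replicate 1 took the adjusted p in limma to 0.11, 0.11, 0.11 and 0.078, and without any filter on detection it was 0.071, so the call was lost in these settings, as it was with the methods' t-test (adjusted p = 0.20). Without GSK-J4 replicate 2 the difference was −0.99, with an adjusted p of 0.025.

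The other 2 Rora probes lie near the 3′ end, and their mean was higher in the GSK-J4 mice without passing the threshold. A_55_P2908171 gave 12.68, 12.47 and 12.81 in the vehicle mice and 13.23, 12.67 and 13.32 in the GSK-J4 mice, a difference of 0.42 ± 0.20 (SE; adjusted p = 0.18 in limma). A_55_P2078123 (chr9:69226774-69226833) gave 9.28, 9.14 and 9.01 against 9.82, 9.06 and 9.51, a difference of 0.32 ± 0.20 (SE; adjusted p = 0.31). GSK-J4 replicate 2 was the lowest GSK-J4 array at all 3 Rora probes, and it lay among the vehicle arrays at both 3′ probes. Without it, A_55_P2908171 differed by 0.62 with an adjusted p of 0.047 in limma, which was a call in the direction opposite to that of the 5′ probe. A_55_P2078123 differed by 0.52 without GSK-J4 replicate 2 and by 0.14 without GSK-J4 replicate 1, called in neither case.

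Rorb encodes ROR beta. Its single probe (A_51_P388490, chr19:19050603-19050662, minus strand, mm9) gave 7.01, 6.95 and 6.55 in the vehicle mice and 6.40, 6.90 and 6.85 in the GSK-J4 mice. The groups overlapped over most of their range. The difference was −0.12 ± 0.19 (SE; 95% interval −0.59 to 0.34; adjusted p = 0.67 in limma), and it was 0.04 without GSK-J4 replicate 1.

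**Figure D2:**
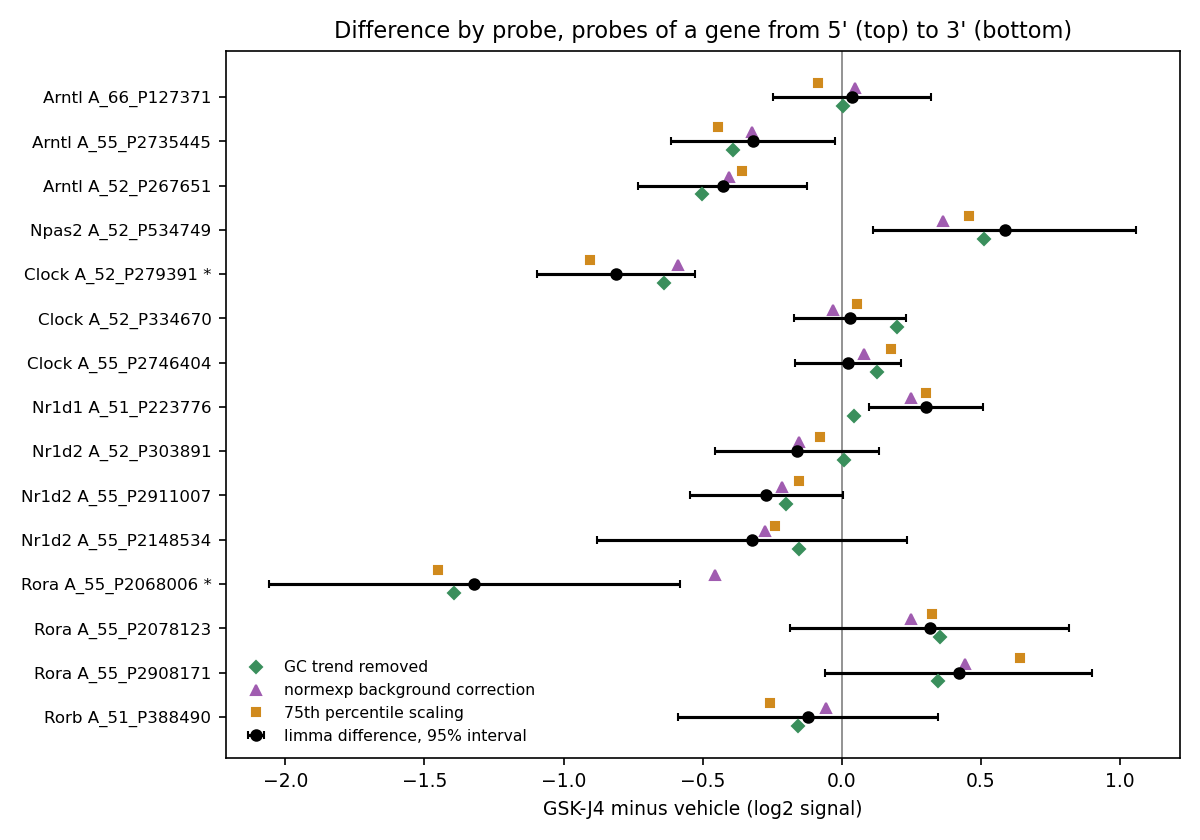
GSK-J4 minus vehicle log2 signal of the 15 kept probes (black points, with 95% intervals from limma, n = 3 per group), with the same difference after removal of the GC trend, normexp background correction and scaling to the 75th percentile; asterisks mark an adjusted p of at most 0.05. The 5′-most probes of Clock (−0.81) and Rora (−1.32) stand apart from the 3′ probes of the same genes, and the value of Nr1d1 moves from 0.30 to 0.04 without the GC trend.

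Whether probes of 1 gene differed unequally between the groups was tested on the difference between a probe and the 3′-most probe of its gene within each array, in 8 pairs of 4 genes, with an exact permutation test (two-sided) whose smallest p for 3 arrays against 3 is 0.1. For Clock, A_52_P279391 minus A_55_P2746404 was −3.62 ± 0.06 (SD, n = 3) in the vehicle mice and −4.45 ± 0.23 (SD, n = 3) in the GSK-J4 mice. The groups did not overlap, and the shift was −0.83 (exact p = 0.1, adjusted 0.27). For Rora, A_55_P2068006 minus A_55_P2908171 was −6.38 ± 0.11 (SD) in the vehicle mice and −8.12 ± 0.27 (SD) in the GSK-J4 mice, a shift of −1.74 (exact p = 0.1, adjusted 0.27) between probes 715701 bases apart on the chromosome. This shift includes the signal of GSK-J4 replicate 2 at A_55_P2068006, which was not above background, and the probe was kept through the vehicle arrays alone. For Arntl the pair of the 5′-most and 3′-most probes shifted the other way, by 0.47 (exact p = 0.1, adjusted 0.27), from −2.92 ± 0.16 (SD) to −2.45 ± 0.11 (SD). The groups overlapped in the other 5 pairs, with shifts between −0.10 and 0.16. No pair could pass a threshold of 0.05 in this design. Among the 7778 genes of the array with several kept probes, the 5′-most minus the 3′-most probe had a median shift of 0.01, it was below 0 in 48.9% of them, and it was below −0.5 in 15.5%. Of the 4 genes here it was below 0 in 2, Clock and Rora.

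The difference between the groups followed the base composition of the probe over the array as a whole. Pearson's r between GC content and difference was 0.325 across the 34443 probes, which share the same 6 arrays and are not independent. Among the 7890 probes with up to 35.0% GC, 15.8% were called lower and 1.74% higher, while among the 6871 with 48.3% GC or more, 1.59% were lower and 20.4% higher. Of the 15 probes, 4 were in the first of these bins (2 of Clock and 2 of Nr1d2), and 1, that of Nr1d1, in the last. The 3 kept Clock probes had 35.0% to 36.7% GC and differences of −0.81, 0.03 and 0.02. With the trend removed these were −0.64, 0.20 and 0.13. What part base composition had in these differences was not tested.

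**Figure D3:**
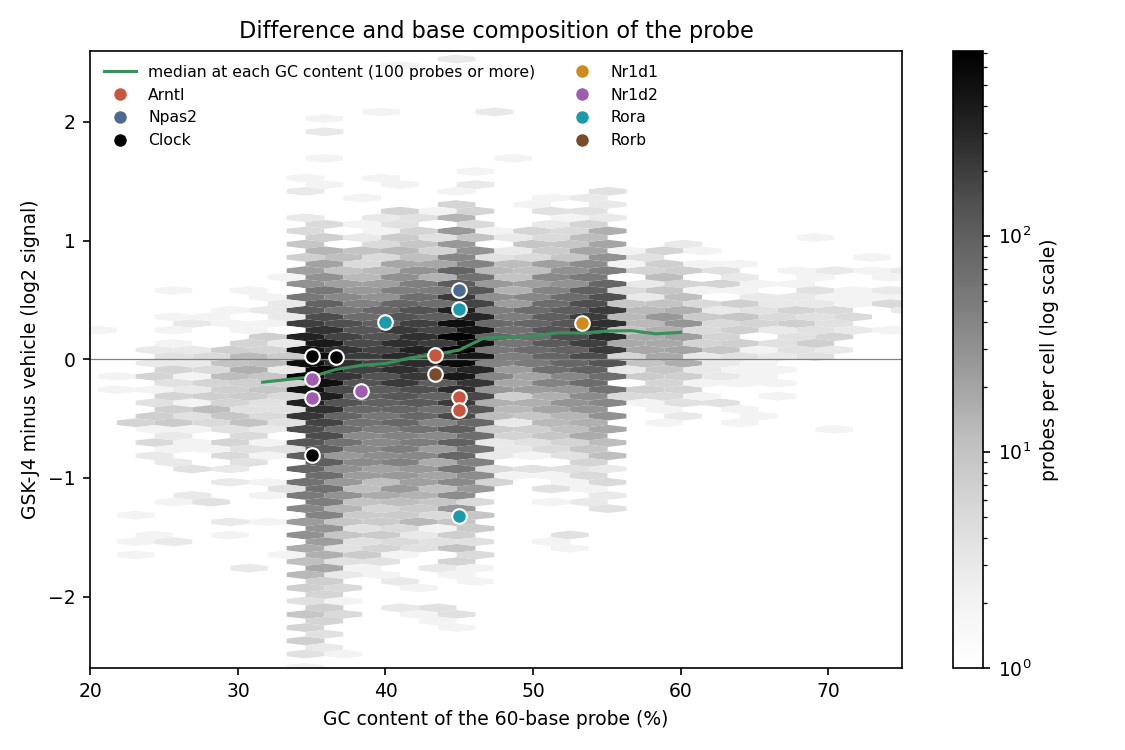
GSK-J4 minus vehicle log2 signal (vertical axis) against the GC content of the probe in percent (horizontal axis), for the kept probes as grey cells shaded by their number on a log scale, with the median at each GC content as a line and the 15 probes of the 7 genes as coloured points; 76 of the 34443 probes lie outside the plotted range. The line runs from below 0 at AT-rich probes to above 0 at GC-rich ones, with Nr1d1 (0.30) close to it and the 5′-most Rora probe (−1.32) far below it.

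The arms of the second loop share a response element, so the RefSeq promoter windows of the 7 genes (GRCm38.p6, 250 bases before to 50 after each annotated start, 11 windows, all 7 genes matched) were searched on both strands for 2 forms of it. The form TAGGTCA was found in 856 of 32851 windows of the table (2.61%) and in 1 window of the 7 genes. The form TAGGTTA was found in 473 (1.44%) and in 2 overlapping windows that hold the same copy. All of these belong to Arntl, and they are shown with the element in capitals because this gene is the known target of both receptor families.
Arntl element, chr7:113207530-113207559, plus strand: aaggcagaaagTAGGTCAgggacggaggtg
Arntl element, chr7:113207494-113207523, plus strand: tggtcggaaagTAGGTTAgtggtgcgacat
The shorter AGGTCA, which is part of the first form, was in 16.3% of all windows and in 3 of the 11, those of Arntl, Clock and Nr1d2. The E-box CACGTG was in 7.15% of all windows and in 0 of the 11, which says only that these letters are not in these windows. The E-box form CATGTG was in 14.2% of all windows and in 1 of the 11, that of Nr1d1. No binding was measured on the arrays. Arntl, the single gene of the 7 with either form in these windows, had differences of 0.04, −0.32 and −0.43, as given above.

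Genes on which the 7 factors act or with which they work were taken from 6 lists of other clock genes, 47 genes with 116 probes, of which 103 probes of 46 genes were kept. Past the same threshold in limma, 4 of these 103 probes rose and 12 fell, 15.5% in all beside 16.8% over the array, and their median difference was −0.01. E-box targets and repressors, the direct outputs of the activator pair, had 2 higher and 4 lower of 27 kept probes, with a median of 0.00. Per3, a period gene, fell at all 3 of its probes, by 0.81, 0.69 and 0.37 (adjusted p = 0.020, 0.031 and 0.042 in limma). These probes had 45.0%, 35.0% and 56.7% GC. Per2, a core repressor, fell by 0.33 at 1 probe (35.0% GC, adjusted p = 0.042 in limma) and differed by 0.11 at the other (adjusted p = 0.60). Over the array, 15.8% of probes with up to 35.0% GC were called lower. Tef, a PAR bZIP output factor, rose by 0.69 at 1 probe (40.0% GC, adjusted p = 0.017 in limma). Its other 3 probes had differences of −0.11, −0.27 and −0.47, so that the Tef probes also disagreed.

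Among ROR element targets, Cry1, the core repressor that is also an E-box target, rose by 0.61 at 1 probe (60.0% GC; adjusted p = 0.017 in limma). The second Cry1 probe differed by −0.46 ± 0.39 (SE; adjusted p = 0.43). Both Nfil3 probes, of a repressor in clock output, had differences of 0.02 and 0.06.

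Partners from the bHLH-PAS family to which BMAL1, CLOCK and NPAS2 belong had 1 higher and 4 lower of 16 kept probes, with a median of −0.24. The share called was 31.2%, beside 16.8% over the array, and 2 of these 5 calls were at probes of 1 gene, Arnt. The median GC content of the 16 probes was 40.0%, and that of all kept probes 43.3%. Arnt, the common partner in the hypoxia and dioxin responses, fell by 0.93 and 0.79 at 2 probes of 3 (both 45.0% GC, adjusted p = 0.037 and 0.025 in limma). The other Arnt probe differed by −1.40 ± 1.06 (SE), with overlapping groups. Arnt2, the brain paralog of Arnt, fell by 0.43 (40.0% GC, adjusted p = 0.036 in limma). Arntl2, the paralog of Arntl, fell by 0.42 at 1 probe of 2 (35.0% GC, adjusted p = 0.043 in limma). The other Arntl2 probe, with a mean log2 signal of 4.76, differed by −1.43 ± 0.39 (SE, adjusted p = 0.056 in limma). The groups did not overlap there. Npas1, a neuronal repressor, rose by 0.59 (53.3% GC; adjusted p = 0.017) at 1 probe and differed by 0.02 at the other (adjusted p = 0.90), where the groups overlapped. Among REV-ERB corepressors, 1 of 18 probes was higher and 0 lower. It was of Gps2, a subunit of the NCoR complex, at 0.35 (53.3% GC, adjusted p = 0.048 in limma), beside 0.34 at the other Gps2 probe (adjusted p = 0.13). Of 16 probes of coactivators 0 were higher and 1, of Ncoa1, was lower, with a difference of −0.65 (45.0% GC, adjusted p = 0.049 in limma). The other Ncoa1 probe differed by −0.05 (adjusted p = 0.62 in limma). Among clock kinases and F-box proteins, Fbxw11, of the family that acts on PER proteins, fell at 2 probes, with differences of −0.38 and −1.04 (35.0% and 36.7% GC, adjusted p = 0.041 and 0.026 in limma). Its other 2 probes had differences of −0.19 and 0.32 and were not called.

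**Figure D4:**
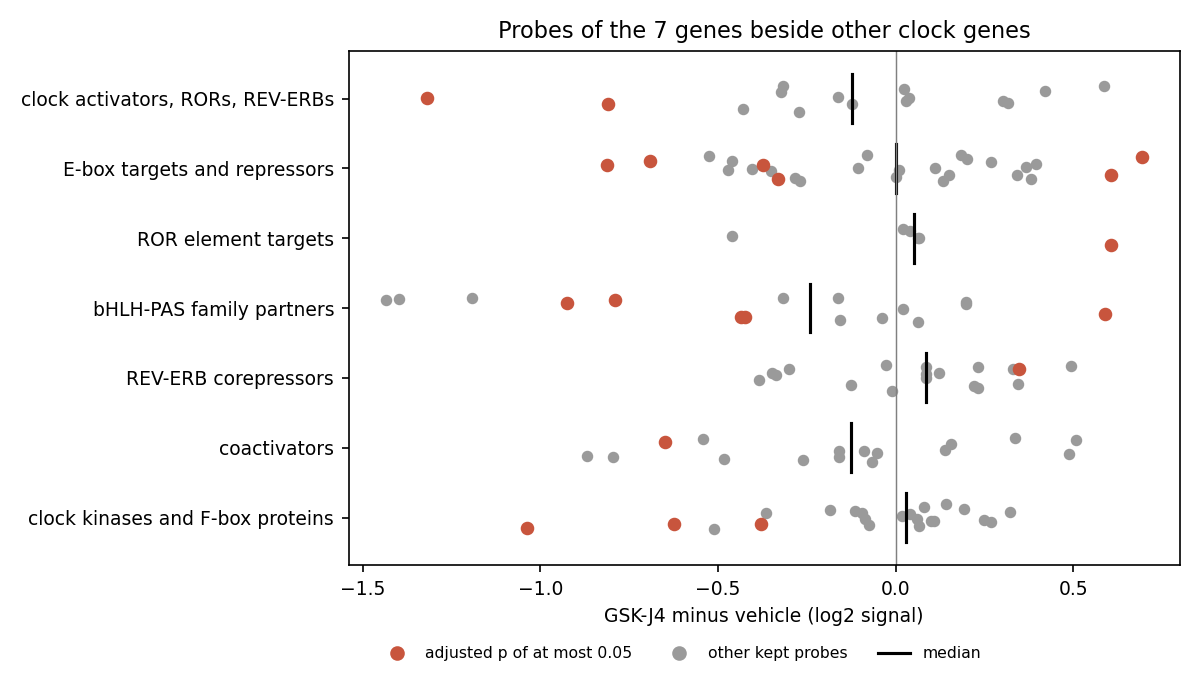
GSK-J4 minus vehicle log2 signal of each kept probe, for the 7 genes (top row) and the 6 lists of other clock genes; coloured points have an adjusted p of at most 0.05 in limma, grey points do not, and vertical bars are medians. In every row points lie on both sides of 0; medians run from −0.24 (bHLH-PAS family partners) to 0.09 (REV-ERB corepressors), with −0.12 for the 7 genes.

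For the probe of each gene with the highest mean signal, the 3 genes most like it over the 6 arrays were found by Pearson's r among the kept probes of genes with RefSeq symbols. The values are a description only, since each r rests on 6 arrays on 2 slides and 25405 to 25407 probes were compared. The genes were Mbip, Rexo4 and Celf2 for Arntl (r = 0.998, 0.996 and 0.996). Npas2 was followed by Fmnl2, Aaas and Mthfsd (0.999, 0.997 and 0.997), and Nr1d1 by Fam184a, Ntn3 and Gpr153 (0.998, 0.998 and 0.998). In these 3 sets the groups of all named genes were free of overlap, like those of the probe they follow. Clock was followed by Eogt, Gabpa and Pcyt2 (0.995, 0.995 and 0.993) and Nr1d2 by Eya4, Trak1 and Zfp781 (0.994, 0.994 and 0.992). The patterns nearest to Rora were those of Ch25h, Zfp568 and Tmem44 (0.996, 0.994 and 0.994), and for Rorb those of Cnih2, Edem2 and Ralgapa2 (0.991, 0.977 and 0.976). None of these genes was a member of the 7 or of the lists of clock genes. The number of probes with r over 0.9 was 89 for Rorb, 168 for Clock and 2110 for Nr1d1.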

How the data were processed

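RNA of 6 mice was hybridized to 6 one-colour Agilent SurePrint G3 mouse arrays. The authors extracted spot intensity values with Feature Extraction (10.7.1.1) and deposited them with detection flags. They also deposited log2 values, described as quantile normalized in GeneSpring. Each deposited log2 column correlated at 0.999 or above with its own array's log2 intensity. Columns were assigned by sample name, with 0 unassigned. Control probes were left out, and no kept spot was saturated.

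The deposited log2 values were tested probe by probe with limma 3.58.1 (lmFit and eBayes, two-sided, no covariate) in R 4.3.3 with the data.table package, version 1.17.8, over the 34443 probes that were well above background throughout 1 group or both. Benjamini-Hochberg adjustment ran over these probes, and an adjusted p of at most 0.05 made a call. Probe coordinates are those of the files (mm9). Promoter windows are from RefSeq (GRCm38.p6), whose coordinates were not mixed with those of the probes. No annotation of the probes' build was used here for exons or UTRs, and no protein sequence. The number of arrays limits the precision, and levels of different probes are not comparable. Scripts were tested on simulated data.

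The 7 genes, the lists and the tests were chosen with earlier results of these data known. Named were every probe of the 7 genes, other clock genes with a called probe, and the 3 genes most like each of the 7 over the arrays. Values of uncalled probes of other clock genes were added after they were seen. So were the marker genes Npy, Pomc, Crh, Agrp, Oxt, Nms, Rgs16, Vip, Lhx1, Prok2, Cx3cr1, Aif1, P2ry12 and Tmem119. Alternatives were quantile normalization of the scanner signals, normexp background correction (offset 50), scaling by the 75th percentile, no filter or detection on all 6 arrays, removal of a GC trend (lowess, span 30% of probes), the replicate number as a block, the methods' t-test, 1 probe per gene, and leaving out each array. Some genes of the lists are not reported here by name. Slide was not fitted, since each group lies on 1 slide.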

Additional observations from a re-analysis of the deposited data

How the results depend on the processing

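Of all probes, 2889 were higher and 2899 lower in limma. Quantile normalization of the scanner signals gave 2888 and 2893, and left the counts and directions for the 7 genes and the counts for the other clock genes as they were. The number higher was 5036 with scaling to the 75th percentile, where 58.1% of calls were higher against 49.9%, 1793 without a detection filter and 1485 with the GC trend removed, where 41.2% were higher. With 1 probe per gene, 22117 probes were tested, of which 1988 were higher and 1723 lower, so that 53.6% of calls were higher. With the replicate number as a block, 0 were called in either direction (11070 probes had an unadjusted p under 0.05), and with the methods' t-test 56 were higher and 37 lower after Benjamini-Hochberg adjustment. Leaving out 1 array gave 1 to 2075 higher and 4 to 2481 lower, with 10, 13 and 5 calls in all without vehicle replicates 1, 2 and 3. The cause of these shifts was not tested.

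Of the probes of the 7 genes, 0 were higher and 2 lower. One was higher (1, Nr1d1) with scaling to the 75th percentile and with detection on all 6 arrays. The number lower was 4 with normexp (2 Arntl probes joined), 1 without a filter, 1 with detection on all 6 arrays, which drops the Rora probe, and 0 with the block, the methods' t-test and 1 probe per gene, which takes other probes of Clock and Rora. Leaving out 1 array gave 0 to 1 higher and 0 to 2 lower. Of the other clock genes, 4 probes were higher and 12 lower. The number higher was 10 with the 75th percentile, 1 with the GC trend removed, 1 with 1 probe per gene, and 0 with the block and with the t-test. The number lower was 4 without a filter, 4 with 1 probe per gene, 0 with the block, 0 with the t-test, and 18 with normexp. Leaving out 1 array gave 0 to 4 higher and 0 to 10 lower. The direction turned at Nr1d2 A_52_P303891 with the GC trend removed (0.0077), at Clock A_52_P334670 with normexp (−0.032) and at Arntl A_66_P127371 with the 75th percentile (−0.085). With 1 array left out, the differences ran from −0.27 to 0.037 for Rorb, from −0.0067 to 0.082 for Clock A_52_P334670, from −0.029 to 0.065 for Clock A_55_P2746404 and from −0.077 to 0.10 for Arntl A_66_P127371.

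Replicates of the same number deviated together at r of 0.007, 0.026 and 0.081, and those of different numbers at −0.098 to 0.093. These values show no pairing by number, but with 3 arrays per group they cannot exclude it. With the replicate block, the adjusted p in limma was 0.080 for the called Clock probe and 0.082 for the called Rora probe.

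The 3 mice per group on 1 slide each limit every comparison. The slide, the scan and the lower brightness of the GSK-J4 arrays cannot be told apart from the treatment. Signals near background, as at the 5′-most Rora probe, move most with background correction.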
